A study of Mus musculus with 18 samples.

Results

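The transcriptomes of mouse embryonic stem (ES) cells and of embryonic fibroblasts used as feeders, a layer that supports them in culture, were compared in 6 of the 18 mRNA sequencing libraries of a study of p53, fibronectin and integrins in ES cell culture. The ES cell group held 3 libraries, DeCFm1 to DeCFm3, of cells grown on control feeders from which the feeders had then been removed, and the feeder group held 3 libraries, CF1 to CF3, of control feeders alone. For these groups the labels give no strain, cell line, genotype or passage and name no agent, and how the feeders were removed is not stated. The other libraries were ES cells still on control or on p53-defective feeders, p53-defective feeders alone, and ES cells cultured with the integrin α5β1 inhibitor ATN161 in place of feeders. Since it is also not stated whether replicates were separate cultures, each p-value refers to the spread among these libraries, which may be technical.

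ES cells are the cultured counterpart of the early epiblast. A network of transcription factors around Pou5f1 (OCT4), Sox2 and Nanog keeps them able to form all tissues of the body, they adhere as an epithelium through E-cadherin, and they divide rapidly with a short G1 phase. Feeder fibroblasts are mesenchymal cells that secrete and crosslink a collagen and fibronectin matrix, contract through actin bundles, keep the Hox code of the body region they came from, and release growth factors that support the ES cells above them.

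Library totals were 17662504 to 18107435 counts for the ES cells and 17477377 to 17706167 for the feeders. The groups lay on opposite sides of the first principal component of all 18 libraries, which held 61.4% of the variance. Levels are in counts-per-million (CPM) after TMM scaling of the library totals, given for ES cell libraries 1, 2 and 3 and then for feeder libraries 1, 2 and 3. Differences are log2 fold changes of ES cells over feeders, so that a positive value means higher in ES cells. The value after ± is the size of the change divided by the square root of the F statistic of its test. It approximates a standard error and can understate counting error where a group has few counts. The table held 19630 genes, each the sum of its transcripts, of which 15389 passed a filter on low counts and were tested.

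With edgeR's quasi-likelihood test, 13222 genes (85.9%) differed at a Benjamini-Hochberg adjusted p below 0.05, the threshold for every call given here. Of the genes tested, 6937 (45.1%) were higher in ES cells and 6285 (40.8%) were lower. Differences of at least 2-fold were called for 4437 genes higher in ES cells (28.8%) and 3833 lower (24.9%), and of at least 8-fold for 1843 higher (12%) and 713 lower (4.63%). A test against a fold of 2 in place of no difference called 7205 genes, and a filter at 5 CPM left 1039 and 452 genes with at least 8-fold differences. Against this background a call alone says little about a gene, and sizes are given throughout. Counts of called members of the gene lists are likewise to be read beside the 45.1% higher and 40.8% lower of all genes tested. The median log2 fold change over all genes tested was 0.09. The libraries of one group did not overlap those of the other in 13487 genes (87.6%), and they did not overlap in any gene whose 6 values are given here. Among tested genes with more than 3 counts over the other group, 620 had no counts in the feeders and 29 had none in the ES cells.

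Both labels were checked against marker genes. All 8 ES cell markers were higher in the ES cells, with a sum of 4220 to 4340 CPM per library against 0.752 to 1.19 CPM in the feeders, where Pou5f1, Zfp42, Esrrb and Tdgf1 had no counts. All 9 embryonic fibroblast markers were lower in the ES cells, with a sum of 3390 to 3690 CPM against 26000 to 31200 CPM, and none of them was at 0. In the ES cells with ATN161 the same sum was 837 to 923 CPM. In bulk RNA, fewer fibroblasts, less fibroblast RNA per cell and expression of these genes by the ES cells themselves cannot be told apart. All 6 macrophage markers were lower in the ES cells (7.15 to 7.85 CPM in sum, with Tyrobp at 0) than in the feeders (116 to 161 CPM). Sums of endothelial, muscle, mesothelial, neural and extraembryonic markers did not exceed 106 CPM in any of the 6 libraries.

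**Figure D1:**
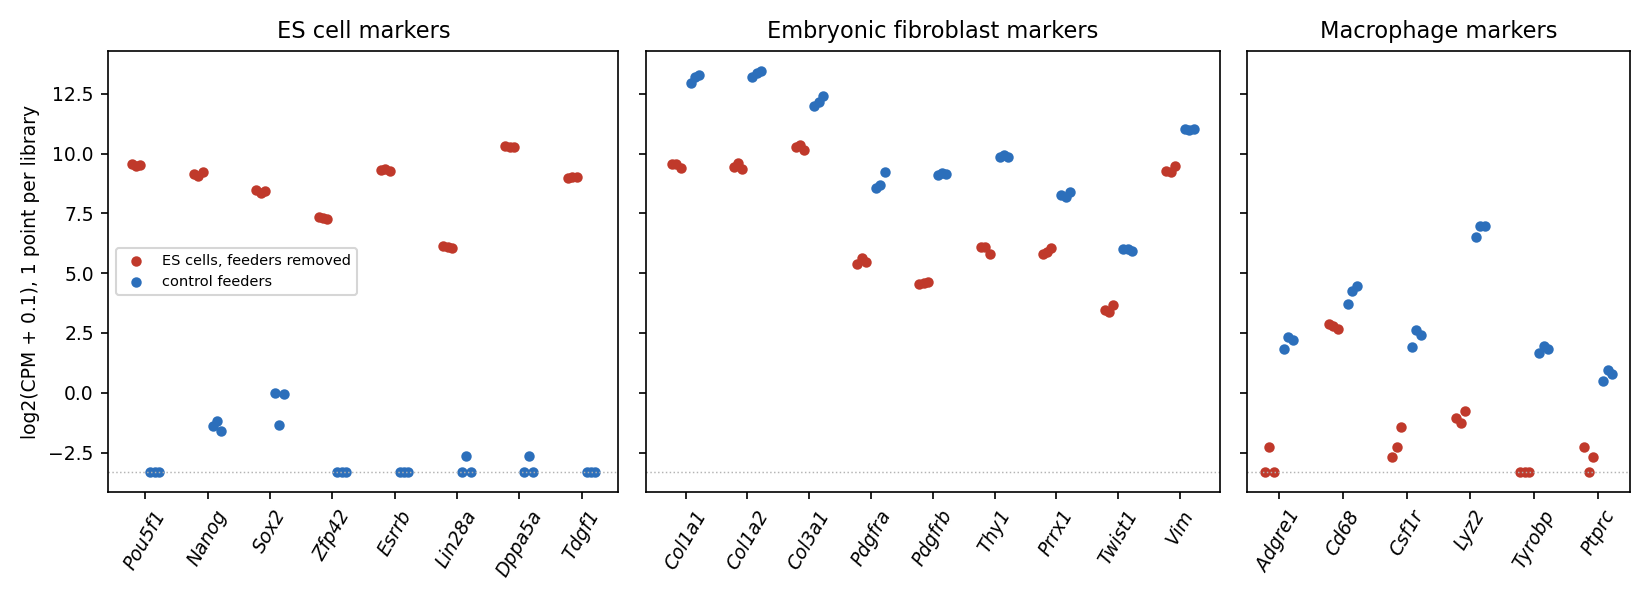
Level of ES cell, embryonic fibroblast and macrophage markers as log2(CPM + 0.1), with 1 point per library for ES cells with feeders removed and for control feeders, and a dotted line at 0 counts. ES cell markers lie at or near 0 in all 3 feeder libraries, whereas the fibroblast markers are lower but present in all 3 ES cell libraries.

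The core pluripotency genes showed the widest differences. All 18 were higher in ES cells, with a median log2 fold change of 10.90. Pou5f1, on chromosome 17 from 35506032 to 35510777 (GRCm38), encodes OCT4, without which the pluripotent state is lost. It had 761, 722 and 733 CPM in ES cells and 0 CPM in each feeder library, at least 12990-fold higher against a floor of 3 counts over the feeder group (adjusted p = 5.52e-19). Tdgf1, which encodes the Nodal co-receptor Cripto, had 507, 516 and 524 CPM in ES cells and 0 CPM in each feeder library (at least 9065-fold). Sall4, a zinc finger partner of OCT4, had 184, 187 and 177 CPM in ES cells and 0 CPM in each feeder library (at least 3218-fold). These 3 genes, and the chromatin factor gene Utf1, were the members with no counts in the feeders.

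Nanog, a homeobox gene of the core network, had 575, 537 and 604 CPM against 0.283, 0.347 and 0.232 CPM, a log2 fold change of 10.93 ± 0.19 (adjusted p = 2.38e-22). Sox2, the DNA-binding partner of OCT4, had 359.6, 327 and 344 CPM against 0.905, 0.289 and 0.869 CPM (8.95 ± 0.18). Both genes therefore had a few counts in every feeder library. Lin28a, which blocks maturation of let-7 microRNAs, had 1 count in the feeders and a ratio of 3510 (95% counting interval 629 to 139000), and its paralogue Lin28b stood at 7.23 ± 0.27. The smallest difference was that of Zfp281 (0.89 ± 0.08), a zinc finger gene that the feeders expressed as well, at 55.6, 54.8 and 61.5 CPM. Counts of Pou5f1 and Nanog may include reads of their pseudogenes.

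Genes of the naive state, in which ES cells have not yet been primed to differentiate, were higher in ES cells in 22 of 23 cases. The median was 10.18, or 9.05 with the 9 genes at 0 in the feeders set to their bound. Esrrb, an orphan nuclear receptor, had 632, 653 and 623 CPM in ES cells and 0 CPM in each feeder library, at least 11190-fold higher. Zfp42 (REX1), a marker of undifferentiated cells, had 162, 159 and 153 CPM in ES cells and 0 CPM in each feeder library (at least 2781-fold). Fgf4, a growth factor gene that OCT4 and SOX2 activate together, had 175, 164 and 172 CPM in ES cells and 0 CPM in each feeder library (at least 2994-fold). Dppa5a, an RNA-binding protein gene, had a single count in the feeders and a ratio of 64700 (95% counting interval 11600 to 2550000). Compared per length, in the authors' deposited transcripts-per-million (TPM), the mean level in ES cells was 5605 ± 356 TPM for Dppa5a, 1063 ± 28 TPM for Pou5f1 and 452 ± 24.5 TPM for Nanog (SD, n = 3).

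The Krüppel-like factors of the naive network differed by gene. Klf5 and Klf2 stood at 5.86 ± 0.11 and 4.08 ± 0.11, but Klf4 had 269, 252 and 261 CPM against 162, 138 and 128 CPM, a difference of 0.87 ± 0.11 (adjusted p = 1.11e-07), and was thus present in the feeders too. Spp1, which encodes the secreted protein osteopontin, was the 1 lower member, with 859, 826 and 943 CPM against 2233, 2468 and 2413 CPM (-1.44 ± 0.10).

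Among genes of the formative and primed states, 14 of 17 were higher in ES cells, Sfrp2 was lower and 2 were not called, with a median of 4.29, or 3.91 with bounds. Nodal, a ligand of the TGFβ family, had 108, 87 and 99 CPM in ES cells and 0 CPM in each feeder library (at least 1726-fold), and its feedback inhibitor Lefty2 had 50.1, 48 and 49.2 CPM in ES cells and 0 CPM in each feeder library (at least 863-fold). Otx2, a homeobox gene of the forming epiblast, had 17.8, 17.7 and 17.4 CPM in ES cells and 0 CPM in each feeder library (at least 309.7-fold). Fgf5, the usual marker of the primed epiblast, was not called (-0.65 ± 0.51, adjusted p = 0.241), and T, Mixl1 and Cer1, genes of the primitive streak and its derivatives, did not pass the filter on low counts. Sfrp2, a secreted Wnt modulator, stood at -1.85 ± 0.15.

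Epithelial junction and polarity genes also marked the ES cells: 27 of 29 were higher and 2, the keratin genes Krt18 and Krt19, were lower (median 4.71). Cdh1, the E-cadherin gene on chromosome 8 from 106603350 to 106670247, had 429.8, 430.1 and 404 CPM against 0.170, 0.0578 and 0.116 CPM (11.76 ± 0.24, adjusted p = 2.72e-21). Epcam, an epithelial adhesion molecule, had 184, 163 and 186 CPM against 0.113, 0.0578 and 0.0579 CPM (11.05 ± 0.17). The desmosomal cadherin gene Dsg2 (9.47 ± 0.19), the protease inhibitor gene Spint1 (8.89 ± 0.15) with its target protease St14 (6.97 ± 0.11), and the tight junction genes Cldn4 (7.32 ± 0.17) and Ocln (6.58 ± 0.28) were higher as well. Cdh2, the N-cadherin gene of mesenchymal cells, was the reverse, with 13.1, 14.6 and 14.9 CPM against 73.7, 77.1 and 76.3 CPM (-2.41 ± 0.12).

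**Figure D2:**
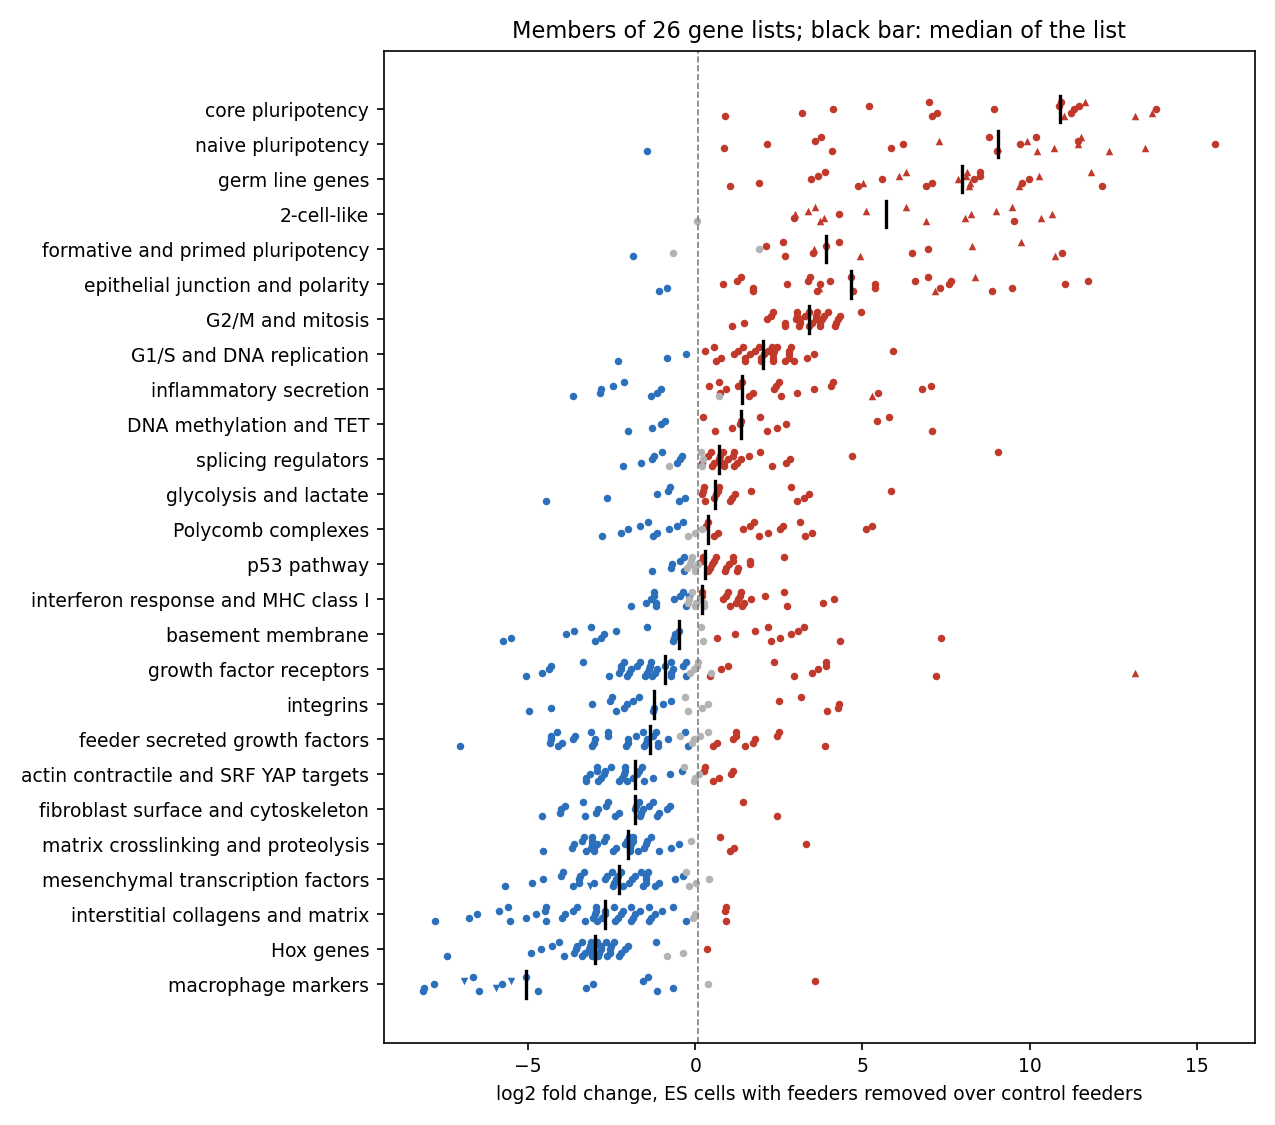
Log2 fold change (ES cells with feeders removed over control feeders) of each tested member of 26 gene lists, with the list median as a black bar and the median of all genes, 0.09, as a dashed line. Red points were called higher and blue points lower in ES cells, grey points were not called, and triangles stand at the bound for genes with no counts in 1 group; the core and naive pluripotency lists lie farthest to the right and the macrophage list farthest to the left.

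Mesenchymal transcription factors were lower in ES cells, in most cases without being near 0. Of 38, 34 were lower, none was higher and 4 were not called, with a median of -2.27, and over the lower members the level left in ES cells had a median of 19.0% of the feeder level. Twist1, a basic helix-loop-helix factor of the mesenchyme, had 11, 10.2 and 12.8 CPM against 65, 64.2 and 60.9 CPM (-2.48 ± 0.10). Prrx1, a homeobox gene of limb mesenchyme, had 55.9, 59.7 and 67.4 CPM against 309, 295 and 336 CPM (-2.36 ± 0.12). Tbx5, a T-box gene of forelimb and heart, was among the widest differences, with 0.165, 0.214 and 0.162 CPM against 10.6, 9.19 and 8.86 CPM (-5.68 ± 0.29). The repressors of Cdh1 were not alike: Snai2 stood at -3.94 ± 0.15, Zeb2 at -2.32 ± 0.13, Snai1 at -1.81 ± 0.14 and Zeb1 at -0.37 ± 0.09.

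Of 26 surface and cytoskeletal genes of fibroblasts, 24 were lower in ES cells and 2 were higher (median -1.80). Thy1, a surface glycoprotein used to sort fibroblasts, had 68.5, 67.7 and 55.9 CPM against 928, 991 and 919 CPM (-3.89 ± 0.11). The platelet-derived growth factor receptor genes Pdgfra and Pdgfrb stood at -3.37 ± 0.22 and -4.58 ± 0.13. Vim, the gene of the intermediate filament protein vimentin, remained abundant in ES cells, with 624, 607 and 714 CPM against 2071, 2015 and 2066 CPM (-1.66 ± 0.08). Cd34 and Eng, surface molecules of progenitor and endothelial cells, were the higher members, at 2.46 ± 0.12 and 1.44 ± 0.09.

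Matrix genes were lower in ES cells with few exceptions. Per length, Bgn, a small proteoglycan gene, had a feeder mean of 4628 ± 169 TPM, Sparc, which encodes a collagen-binding glycoprotein, 3764 ± 289 TPM, and Col1a2, of collagen I, 3689 ± 306 TPM (SD, n = 3). Of 46 matrix genes, 41 were lower in ES cells, 3 were higher (Efemp1, Prelp and Tnxb) and 2 were not called, with a median of -2.71. Col1a1, of the other collagen I chain, on chromosome 11 from 94936224 to 94953042, had 752, 770.2 and 674 CPM against 8034, 9355 and 9890 CPM (-3.64 ± 0.16, adjusted p = 2.14e-15). Fn1, the fibronectin gene on chromosome 1 from 71585473 to 71653280, had 1618, 1708 and 1598 CPM against 11680, 12410 and 14000 CPM (-2.95 ± 0.15, adjusted p = 1.61e-14).

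Genes of elastic fibres fell by unlike amounts. Eln, the elastin gene, had 2.19, 2.62 and 2.87 CPM against 527, 567 and 606 CPM (-7.79 ± 0.11, adjusted p = 4.10e-23). This high level was that of control feeders, since p53-defective feeders had a mean of 0.0608 CPM, below the 0.340 CPM of ES cells with ATN161. Fbln5 and Mfap4, which help to assemble elastin, stood at -5.61 ± 0.08 and -6.53 ± 0.13, and the fibrillin genes differed from each other, with Fbn2 at -5.88 ± 0.11 and Fbn1 at -1.93 ± 0.14.

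The level left in the ES cells was not the same from gene to gene of this matrix. It was 0.452% of the feeder level for Eln, 0.912% for Aspn, 8.05% for Col1a1, 12.9% for Fn1, 26.4% for Col3a1, 50.8% for Lum and 82.7% for Dcn, and the median over the 41 lower genes was 12.9%. Aspn, like Eln, was near 0 in p53-defective feeders (mean 0.162 CPM), whereas Col1a1, Fn1 and Col3a1 had means of 2600, 14220 and 630.7 CPM there. Beyond the matrix, of 4733 genes called lower in ES cells with at least 10 CPM in the feeders, 20 stood under 1% and 98 under 5% of the feeder level. In the other direction, of 4894 genes called higher with at least 10 CPM in ES cells, 289 stood under 1% and 457 under 5% in the feeders. Medians were 46.3% and 47.2%, so that the directions differed at the extremes rather than in the middle. What part of the fibroblast transcripts in the ES cell libraries came from feeder cells was not tested.

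**Figure D3:**
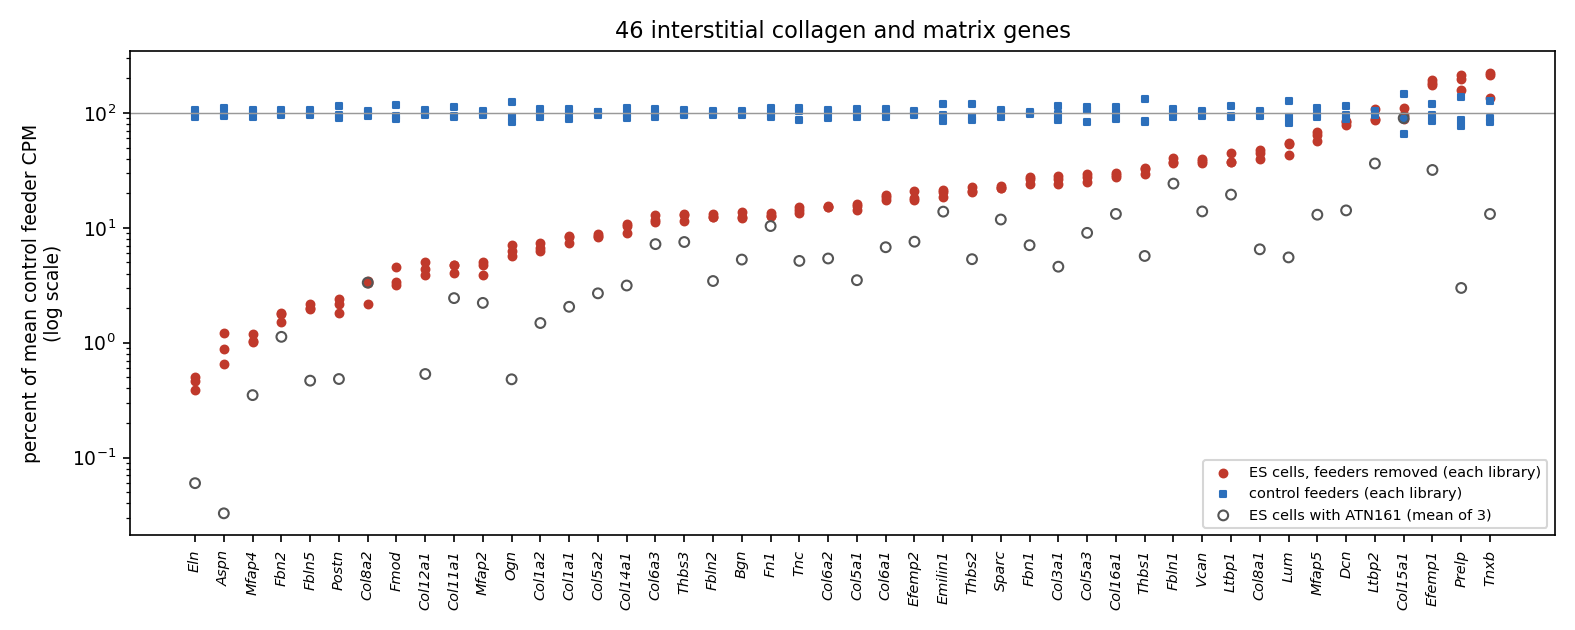
Level of the 46 interstitial collagen and matrix genes as a percentage of their mean control feeder CPM on a log axis, with points for the 3 ES cell libraries, squares for the 3 feeder libraries and open circles for the mean of ES cells with ATN161 where it is above 0. The ES cell points run from about 0.452% for Eln to above 100% for Efemp1, Prelp and Tnxb.

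Enzymes and inhibitors that process the matrix followed the same direction: 33 of 38 were lower in ES cells, 4 were higher and 1 was not called (median -2.0). Lox, the lysyl oxidase that crosslinks collagen and elastin, had 246, 259 and 228 CPM against 2899, 2870 and 3582 CPM (-3.67 ± 0.15). The procollagen protease genes Adamts2 and Bmp1 stood at -4.56 ± 0.14 and -2.66 ± 0.09, and the collagen chaperone gene Serpinh1 at -2.95 ± 0.08. Mmp9, a gelatinase gene, was higher in ES cells (3.30 ± 0.19), as were Serpine2 (1.15 ± 0.09), Mmp3 (1.03 ± 0.15) and Plod2 (0.74 ± 0.08).

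Among 27 basement membrane genes, 11 were higher in ES cells, 14 lower and 2 not called, where 45.1% of all genes tested were higher and 40.8% lower. Their median of -0.49 turned to 0.18 when only curated transcripts were counted. The laminin α chains differed in direction. Lama3, of epithelial laminins, had 115, 126 and 117 CPM against 0.679, 0.809 and 0.695 CPM (7.35 ± 0.17), and Lama1 and Lama5 were also higher (2.28 ± 0.18 and 1.2 ± 0.13), whereas Lama2 and Lama4 were lower (-3.87 ± 0.15 and -1.44 ± 0.13). The collagen IV genes Col4a1 and Col4a2 were lower in ES cells, at -2.99 ± 0.14 and -3.11 ± 0.16.

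Integrins, the receptors for these proteins, were mostly lower in ES cells, 14 of 23 against 5 higher and 4 not called (median -1.23). The fibronectin receptor chain gene Itga5 had 153, 148 and 158 CPM against 279.8, 307 and 302 CPM (-0.95 ± 0.09, adjusted p = 5.75e-10), and its partner Itgb1 had 462, 459 and 505 CPM against 1863, 1954 and 2015 CPM (-2.03 ± 0.08). RNA of both chains, which form the target of ATN161, was thus found in the ES cell libraries at a lower level than in the feeders. Itga11, a collagen receptor chain gene of fibroblasts, stood at -4.30 ± 0.09. Genes of laminin receptor chains differed in direction. Itga6 had 206, 205 and 196 CPM against 23.4, 25.1 and 19.23 CPM (3.16 ± 0.14), and Itgb4, its partner in hemidesmosomes, had 15.5, 14.8 and 17.6 CPM against 2.21, 3.12 and 3.07 CPM (2.51 ± 0.15), whereas Itga7 was lower (-4.96 ± 0.16) and Itga3 was not called (-0.31 ± 0.16, adjusted p = 0.0767). Itgb7, Itgal and Itgae, best known from leukocytes, were the other higher members.

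Contractile genes and targets of the actin-regulated factors SRF and YAP were lower in 24 of 34 cases, with 6 higher and 4 not called (median -1.80). Acta2, smooth muscle actin, had 64.1, 65.1 and 84.5 CPM against 670.4, 615 and 606 CPM (-3.15 ± 0.24). The focal adhesion gene Zyx had 40.4, 41.1 and 41.2 CPM against 270.1, 257 and 263 CPM (-2.69 ± 0.07), and the myosin light chain kinase gene Mylk stood at -3.27 ± 0.25. Srf itself was higher in ES cells (1.13 ± 0.08), and Ccn2, a YAP target, was not called (-0.02 ± 0.21).

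Hox genes, which record position along the body axis, were lower in ES cells in 35 of 38 cases, with a median of -2.99. The lower members came from all 4 clusters. Hoxd3 had 3 counts over the ES cell libraries and 9.22, 12.1 and 10.2 CPM in the feeders, a ratio of 195 (95% counting interval 66.3 to 947) in favour of the feeders. Hoxb9, of the trunk, had 9.05, 8.86 and 9.15 CPM against 71, 77.3 and 61.6 CPM (-2.95 ± 0.11), and Hoxd13, of the distal limb and tail, had 2.47, 1.81 and 4.71 CPM against 52.9, 49.5 and 47.6 CPM (-4.06 ± 0.19). Over the 35 lower genes the level left in ES cells ran from 0.514% to 44.0% of the feeder level, with a median of 11.9%. Of the others, 2 were not called, and Hoxc13 was called higher (0.35 ± 0.14), but not without ES cell library 2 (adjusted p = 0.085) or without feeder library 3 (adjusted p = 0.0604).

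Chromatin regulators differed by subunit. Of 16 genes of DNA methylation and its removal, 12 were higher in ES cells and 4 lower (median 1.35). Dnmt3b, a de novo DNA methyltransferase gene, had 188, 185 and 184 CPM against 3.79, 3.82 and 2.43 CPM (5.79 ± 0.11), and its cofactor Dnmt3l stood at 7.07 ± 0.17. Tet1, which oxidises methylcytosine, had 311, 347 and 255 CPM against 6.56, 7.05 and 7.53 CPM (5.43 ± 0.17), whereas Tet3 was lower in ES cells (-2.01 ± 0.10).

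Of 29 Polycomb genes, 16 were higher, 10 lower and 3 not called (median 0.37), where 45.1% of all genes tested were higher and 40.8% lower. Genes of the complex that methylates histone H3 at lysine 27 were higher in ES cells, with Ezh2 at 2.55 ± 0.08, Eed at 2.17 ± 0.07 and Suz12 at 1.91 ± 0.10, and its accessory subunit gene Jarid2 had 342, 346 and 332 CPM against 8.49, 8.85 and 8.69 CPM (5.29 ± 0.10). The chromodomain genes of the other complex split, Cbx7 being higher (3.49 ± 0.13) and Cbx8 and Cbx6 lower (-2.21 ± 0.17 and -1.41 ± 0.07).

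Cell cycle genes were higher in ES cells with few exceptions. All 30 genes of G2/M and mitosis were higher (median 3.41), and so were 31 of 34 genes of G1/S and DNA replication (median 2.02). Ccnb1, the mitotic cyclin B1, had 526, 524 and 538 CPM against 18.2, 16.4 and 16.8 CPM (4.95 ± 0.10, adjusted p = 1.74e-21). Mybl2, a transcription factor of dividing cells, had 592, 579 and 588 CPM against 10.8, 9.54 and 8.92 CPM (5.91 ± 0.11). Mitotic transcripts were present in the feeders, for example at 62.8, 58.2 and 60.5 CPM for the topoisomerase gene Top2a. The 3 lower members of the G1/S list were cyclin genes, Ccnd2 (-2.30 ± 0.08), Ccne2 (-0.85 ± 0.14) and Ccnd1 (-0.28 ± 0.07). Of 7 inhibitors of cyclin-dependent kinases, 4 were lower in ES cells and 3 were not called (median -1.08), and the widest difference was that of Cdkn1c (p57), with 4.0, 2.88 and 3.25 CPM against 335, 319 and 366 CPM (-6.65 ± 0.12).

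Trp53, the p53 gene, was higher in ES cells, with 364, 355 and 404 CPM against 123, 124 and 112 CPM (1.65 ± 0.09, adjusted p = 8.88e-14). The 30 genes of its pathway, itself included, did not share a direction: 17 were higher, 6 lower and 7 not called, with a median of 0.30. Perp, a p53 target in desmosomes, had 135, 140.4 and 172 CPM against 24.2, 24.4 and 22.2 CPM (2.66 ± 0.09), and Rrm2b, a ribonucleotide reductase subunit gene, stood at -1.30 ± 0.13. Cdkn1a (p21), the best known target, had 567, 523 and 596 CPM against 680.4, 649 and 663 CPM and was not called (-0.24 ± 0.11, adjusted p = 0.0543), although a fit of the 2 groups alone called it (adjusted p = 0.00221).

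Of 24 genes of glycolysis and lactate, 17 were higher in ES cells and 7 lower (median 0.59). The glucose transporter gene Slc2a3 had 1255, 1267 and 1272 CPM against 21.9, 22.3 and 21.3 CPM (5.86 ± 0.13), and the hexokinase gene Hk2 stood at 3.24 ± 0.19. The isozyme genes Eno2 and Aldoc, typical of neural tissue, were lower in ES cells (-4.45 ± 0.11 and -2.65 ± 0.16). Of 20 genes of threonine, glycine and one-carbon metabolism, 10 were higher, 6 lower and 4 not called (median 0.21). Tdh, the threonine dehydrogenase on which mouse ES cells rely, had 319, 305 and 290.4 CPM in ES cells and 0 CPM in each feeder library, at least 5357-fold higher, and Gldc, of the glycine cleavage system, had 203, 192 and 191 CPM against 0.340, 0.578 and 0.232 CPM (8.97 ± 0.15). Phgdh, which begins serine synthesis, was lower (-1.87 ± 0.10), as was Ahcy, which clears S-adenosylhomocysteine (-3.14 ± 0.12).

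Germ line genes were higher in ES cells in 26 of 26 cases, with a median of 8.83, or 7.98 with the 11 genes at 0 in the feeders set to their bound. Tex19.1, which restrains mobile elements in germ cells, had 208, 192 and 220.5 CPM in ES cells and 0 CPM in each feeder library (at least 3636-fold). Dazl, an RNA-binding protein gene of germ cells, had 121, 123 and 113 CPM and 1 count over the feeders, a ratio of 6180 (95% counting interval 1110 to 244000). Rhox5, a homeobox gene of the X chromosome, had 159, 159 and 155 CPM against 0.170, 0.231 and 0.116 CPM (9.78 ± 0.16). Sycp1, a meiotic gene of the synaptonemal complex, had 13.1, 14.1 and 12.4 CPM in ES cells and 0 CPM in each feeder library (at least 232-fold).

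Of 18 genes of the 2-cell-like state, a rare condition of ES cells that resembles the early cleavage embryo, 17 were higher in ES cells (median 8.75, or 5.70 with bounds). Of those with more than 3 counts over the ES cells, 14 had no counts in the feeders. Zscan4f had 92.7, 97.2 and 87.6 CPM in ES cells and 0 CPM in each feeder library (at least 1627-fold), while Duxf3, a homeobox gene that activates this state, was at 0.658, 0.641 and 0.487 CPM. Zscan4 and Usp17l genes are near-identical copies, so that counts of single members are uncertain.

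Promoters were searched for 9 short motifs of factors known for these gene groups, on both strands of the 250 bases before the start, in RefSeq promoters of GRCm38.p6. By symbol, 12136 tested genes were matched, and the table held 27025 genes. Shown here are the promoter of Nanog, one of a germ line gene and one of a mitotic gene, because each holds the motif of its group. Each is printed 5′ to 3′ on the gene's strand up to the base before the start, with the motif in capitals.
Nanog, the composite OCT4 and SOX2 element, chr6:122707239-122707488, plus strand: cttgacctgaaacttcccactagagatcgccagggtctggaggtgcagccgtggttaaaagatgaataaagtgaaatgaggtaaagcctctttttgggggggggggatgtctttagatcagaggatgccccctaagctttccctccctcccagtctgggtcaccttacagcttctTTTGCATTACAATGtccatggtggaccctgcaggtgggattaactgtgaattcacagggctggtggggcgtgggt
Ddx4, a germ cell RNA helicase gene, the E-box, chr13:112652311-112652560, minus strand: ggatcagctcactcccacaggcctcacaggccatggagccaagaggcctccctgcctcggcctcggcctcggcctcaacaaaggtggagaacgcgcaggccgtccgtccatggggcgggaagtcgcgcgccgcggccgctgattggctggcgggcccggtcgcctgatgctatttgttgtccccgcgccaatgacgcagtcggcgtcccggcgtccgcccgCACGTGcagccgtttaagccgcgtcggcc
Ccnb2, the cyclin B2 gene, CCAAT at 3 places, chr9:70421555-70421804, minus strand: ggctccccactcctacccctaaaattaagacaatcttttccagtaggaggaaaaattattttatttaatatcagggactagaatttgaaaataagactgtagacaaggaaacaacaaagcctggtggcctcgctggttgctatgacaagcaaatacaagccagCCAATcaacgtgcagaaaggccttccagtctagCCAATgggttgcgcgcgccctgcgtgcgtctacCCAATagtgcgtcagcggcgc

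The composite element, CATTGT for SOX2 followed by any base and ATGCAAA for OCT4, was found in 1 promoter of those tested (0.00824%) and of all in the table (0.0037%), that of Nanog, where it lies on the other strand 75 bases before the start. The E-box CACGTG, the motif of MYC and MAX, was in 10 of 21 germ line promoters (47.6%) against 9.56% of tested genes and 6.86% of the table, and in Ddx4 it begins 29 bases before the start. CCAAT was in 19 of 25 promoters of the G2/M list (76%) and 17 of 26 of the G1/S list (65.4%) against 40.8% of tested genes and 37.5% of the table. In Ccnb2 it begins 87, 54 and 21 bases before the start. The cell cycle homology region TTTGAA was in 10 of 25 G2/M promoters (40%) against 13.3% and 18.3%. These values describe letters in a window, and no binding was measured.

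Among the other motifs, the E2F site TTTCCCGC was in 4 of 26 G1/S promoters, those of Cdc6, Cdk2, E2f3 and Mcm7 (15.4%), against 1.86% of tested genes and 1.03% of the table, and the TCCCGC within it was in 16 of 26 (61.5%) against 32.3% and 18.8%. The TEAD site GGAATGT was in 6 of 30 promoters of the list of contractile genes and SRF and YAP targets (20%) against 3.09% and 3.75%. The CArG box, the site of SRF, was in 4 of these 30, those of Cnn2, Myl9, Srf and Vcl (13.3%), against 1.47% and 1.62%. Because that list was written to include SRF and YAP targets, its shares of these sites are no independent result. The octamer ATGCAAAT was in 2 of 13 naive promoters, those of Spp1 and Zfp42 (15.4%), against 1.62% and 1.81%, but in none of 13 core pluripotency promoters. Motifs were not limited to the groups whose factors they are known for, over the 8 lists searched. CCAAT was also in 13 of 21 Hox promoters (61.9%) and 16 of 30 of the contractile, SRF and YAP target list (53.3%). The TEAD site was in 2 of 13 naive promoters (15.4%), the octamer in 2 of 34 matrix promoters (5.88%), and the E-box in 5 of 26 G1/S and 4 of 21 Hox promoters. Ddx4 had 10.2, 10.2 and 9.69 CPM against 0.905, 0.867 and 0.927 CPM (3.47 ± 0.20), and Ccnb2 had 164, 154 and 169.8 CPM against 14.7, 12.8 and 12.6 CPM (3.60 ± 0.09).

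Secreted growth factors listed for feeders were lower in ES cells in 30 of 46 cases, with 11 higher and 5 not called (median -1.35). Igfbp5, which binds insulin-like growth factors, had 17.2, 17.6 and 17.7 CPM against 2377, 2496 and 2052 CPM (-7.04 ± 0.13, adjusted p = 6.71e-22). Igf2 itself had 609, 640.0 and 813 CPM against 4087, 4277 and 4238 CPM (-2.61 ± 0.12). The Bmp antagonist gene Grem1 stood at -4.13 ± 0.15, the chemokine gene Cxcl12 at -4.09 ± 0.29 and Vegfa at -3.60 ± 0.11. Lif, which encodes the cytokine that keeps mouse ES cells undifferentiated, was higher in the ES cell libraries, with 46.2, 40.5 and 44 CPM against 16.2, 18.2 and 12.4 CPM (1.48 ± 0.11). Bmp4, which acts together with it in serum-free culture, was lower (-1.55 ± 0.16).

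Of 47 growth factor receptors, 31 were lower in ES cells, 11 higher and 5 not called (median -0.90). Kit, the stem cell factor receptor gene, had 106, 109 and 108 CPM against 0.679, 0.636 and 0.869 CPM (7.19 ± 0.12), and the neuregulin receptor gene Erbb3 stood at 3.90 ± 0.14. The receptor for Lif differed little (0.45 ± 0.10 for Lifr), and the signalling chain gene Il6st was lower (-1.50 ± 0.11). Fgfr1 and Fgfr2 were lower (-1.45 ± 0.07 and -1.92 ± 0.14), whereas Fgfr4 was higher (2.96 ± 0.25).

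Inflammatory genes were more often higher in the ES cell libraries, 20 of 29, with 8 lower and 1 not called (median 1.41). The chemokine gene Ccl11 had 75.2, 71.4 and 54.6 CPM against 1.42, 1.39 and 1.74 CPM (5.46 ± 0.17), Ccl2 had 166, 162 and 161 CPM against 29.9, 30.9 and 33.9 CPM (2.37 ± 0.10), and the complement gene C3 had 44.7, 48 and 51.8 CPM against 2.89, 2.20 and 3.24 CPM (4.11 ± 0.22). Lcn2, an iron-binding secreted protein gene, stood at 7.06 ± 0.31, and Ptx3, a pattern recognition protein gene, was lower (-3.65 ± 0.11). The 9 fibroblast markers, at 3390 to 3690 CPM in sum, were measured in the same ES cell libraries, and their part in these values was not tested.

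Macrophage genes differed in the reverse direction: 17 of 19 were lower in ES cells, with a median of -5.05. Lyz2, a lysozyme gene of macrophages, had 0.384, 0.320 and 0.487 CPM against 91.7, 124 and 124 CPM (-8.13 ± 0.20), and a mean of 0.0404 CPM in p53-defective feeders. The complement genes C1qa and C1qc and the adaptor gene Tyrobp had no counts in the ES cells. Laptm5, a lysosomal membrane protein gene of blood cells, was the 1 higher member (3.58 ± 0.12). Among 38 interferon and MHC class I genes, 18 were higher in ES cells, 12 lower and 8 not called (median 0.20). Shares over all genes tested were 45.1% higher and 40.8% lower. Oas2, of the antiviral RNA pathway, stood at 3.81 ± 0.10 and the MHC light chain gene B2m at -1.18 ± 0.10.

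Some of the widest differences lay outside these lists. Trap1a, an X-linked tumour antigen gene, had 177, 176 and 187 CPM in ES cells and 0 CPM in each feeder library (at least 3164-fold). Ezhip, which encodes an inhibitor of Polycomb methylation, had 94.9, 89.7 and 111 CPM in ES cells and 0 CPM in each feeder library (at least 1733-fold). The zinc finger genes Rex2, Zfp600 and Zfp978 had no counts in the control feeders either, but means of 1.95, 0.739 and 1.44 CPM in p53-defective feeders. Lgr5, a receptor gene for R-spondins, had 0.549, 0.320 and 0.162 CPM against 127, 133 and 172 CPM (-8.69 ± 0.25). Chodl and Fgf21 had 2 counts each over the ES cell libraries and ratios in favour of the feeders of 1490 (95% counting interval 413 to 12300) and 1280 (95% counting interval 355 to 10600). Thbs4, Slc27a6, Angptl1, Fam180a and Adamtsl2 were further large falls that no list holds. Of the falls named in this paragraph, Lgr5, Chodl and Adamtsl2 had 0 CPM in p53-defective feeders. Thbs4 and Angptl1 had means of 0.102 and 0.01925 CPM there, whereas Fgf21, Slc27a6 and Fam180a had 97.7, 17.4 and 2.07 CPM.

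Splicing regulators were counted first, and transcript use was then compared within genes. Of 35 regulators, 23 were higher in ES cells, 8 lower and 4 not called (median 0.70). Shares over all genes tested were 45.1% higher and 40.8% lower. Esrp1, an epithelial splicing regulator gene, had 15.1, 14.2 and 12.1 CPM and 1 count over the feeders, a ratio of 732 (95% counting interval 131 to 29000). Rbm47, another regulator of epithelia, had 32.8, 32.2 and 32.8 CPM against 1.36, 1.33 and 1.04 CPM (4.70 ± 0.14). Mbnl1 and Mbnl2, which favour splicing patterns of differentiated cells, were lower in ES cells, at -1.30 ± 0.11 and -1.24 ± 0.12.

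The test of transcript use asked whether the transcripts of a gene differed unequally between the groups, over 7185 genes with at least 2 measured transcripts and 5 CPM in both groups. It called 1995 genes (27.8%), and in 726 of them (10.1% of those tested) the share of at least 1 transcript in the gene's counts moved by 20 percentage points or more. In 376 of the 726 genes the leading transcript was not the same, and in 115 the gene as a whole was not called. A further 308 were called as genes but by less than 2-fold. For comparison, 2167 of all 15389 genes tested for level were not called. Of the 85.9% called, at least 2-fold differences made up 28.8% (higher) and 24.9% (lower) of the genes tested. Calls of transcript use were fewer with a Simes adjustment of the transcript tests (709 genes, 383 of them with moves of 20 points) and with curated transcripts only (1117 and 450). Shares rest on the authors' assignment of reads to overlapping transcripts, and in 661 of the 726 genes the move was at least 20 points in the deposited TPM as well.

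The exons that separate the moving transcripts are shown for the 8 genes in which a wholly coding internal exon distinguished them, and for Itga6, because these differences reach the protein. Both transcripts could be matched from RefSeq to GENCODE vM21 (GRCm38) for 20 of the 31 genes named by rule. Capitals mark the exon, or for Itga6 its coding part, and lower case up to 20 neighbouring bases of the transcript on each side, or before it only in Itga6, all 5′ to 3′ on the gene's strand.
Map3k7 exon 12 of 17, in the transcript favoured by ES cells, chr4:31994874-31994954, plus strand: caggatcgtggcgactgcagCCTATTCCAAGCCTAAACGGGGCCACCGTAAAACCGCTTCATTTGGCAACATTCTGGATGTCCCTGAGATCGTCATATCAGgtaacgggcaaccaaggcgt
Itga6 exon 25 of 26, in the transcript favoured by feeders, chr2:71853534-71853641, plus strand: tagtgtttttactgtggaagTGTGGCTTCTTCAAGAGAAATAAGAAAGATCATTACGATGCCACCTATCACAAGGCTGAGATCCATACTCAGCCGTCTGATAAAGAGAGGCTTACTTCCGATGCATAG
Tead1 exon 4 of 14, in the transcript favoured by feeders, chr7:112841888-112841950, plus strand: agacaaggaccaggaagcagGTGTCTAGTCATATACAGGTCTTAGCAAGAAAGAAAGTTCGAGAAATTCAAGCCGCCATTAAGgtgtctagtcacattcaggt
Slain2 exon 7 of 9, in the transcript favoured by feeders, chr5:72965804-72965881, plus strand: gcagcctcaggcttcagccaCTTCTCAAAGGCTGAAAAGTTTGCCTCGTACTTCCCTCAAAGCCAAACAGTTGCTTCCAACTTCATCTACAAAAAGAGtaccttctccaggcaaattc
Exoc1 exon 11 of 19, in the transcript favoured by ES cells, chr5:76557819-76557863, plus strand: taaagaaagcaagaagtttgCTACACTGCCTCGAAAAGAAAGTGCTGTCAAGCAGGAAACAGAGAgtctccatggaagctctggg
Exoc7 exon 7 of 19, in the transcript favoured by ES cells, chr11:116297571-116297663, minus strand: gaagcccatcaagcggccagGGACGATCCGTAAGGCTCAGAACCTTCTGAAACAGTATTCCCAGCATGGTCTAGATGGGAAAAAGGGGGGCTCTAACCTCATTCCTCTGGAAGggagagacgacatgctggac
Clstn1 exon 3 of 19, in the transcript favoured by feeders, chr4:149626087-149626116, plus strand: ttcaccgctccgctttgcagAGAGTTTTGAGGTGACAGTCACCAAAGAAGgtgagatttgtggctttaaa
Fgfr1 exon 3 of 18, in the transcript favoured by ES cells, chr8:25555508-25555774, plus strand: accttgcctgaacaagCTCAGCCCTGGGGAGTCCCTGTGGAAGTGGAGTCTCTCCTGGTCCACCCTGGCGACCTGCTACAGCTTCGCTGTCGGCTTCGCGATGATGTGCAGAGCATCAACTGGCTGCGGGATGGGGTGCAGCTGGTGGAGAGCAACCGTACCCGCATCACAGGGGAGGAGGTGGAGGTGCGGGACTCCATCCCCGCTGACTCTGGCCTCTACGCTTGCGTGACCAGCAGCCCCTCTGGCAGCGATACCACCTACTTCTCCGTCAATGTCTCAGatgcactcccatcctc
Dnm2 exon 10 of 21, in the transcript favoured by ES cells, chr9:21480407-21480545, plus strand: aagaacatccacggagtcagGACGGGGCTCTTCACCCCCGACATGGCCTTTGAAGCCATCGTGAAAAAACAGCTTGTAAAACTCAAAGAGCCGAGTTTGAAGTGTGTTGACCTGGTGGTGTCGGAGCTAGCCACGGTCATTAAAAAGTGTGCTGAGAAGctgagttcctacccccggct
Dnm2 exon 10 of 20, in the transcript favoured by feeders, chr9:21478899-21479037, plus strand: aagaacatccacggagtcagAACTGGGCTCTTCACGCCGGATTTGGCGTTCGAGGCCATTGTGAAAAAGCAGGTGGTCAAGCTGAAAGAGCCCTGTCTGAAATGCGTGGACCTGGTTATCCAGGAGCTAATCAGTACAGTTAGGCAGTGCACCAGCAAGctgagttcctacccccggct

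Map3k7, which encodes the kinase TAK1 of TGFβ and inflammatory signalling, differed little as a gene (-0.33) but much in its transcripts. NM_009316, with the exon of 81 bases, held 71.1, 68.5 and 74.8% in ES cells against 0% in feeders. NM_172688, which lacks it, held 28.9, 26.6 and 25.2% in ES cells against 91.2, 93.4 and 89.1% in feeders (adjusted p of transcript use 5.77e-15). In Itga6 the exon encodes the cytoplasmic tail known as α6A, over 108 coding bases up to the stop codon, and skipping it gives the α6B tail. The skipping transcript NM_001277970 held 95.7, 56.5 and 88.4% in ES cells against 0% in feeders, and the including transcript NM_008397 held 4.12, 6.78 and 7.21% in ES cells against 89.8, 78.5 and 52.6% in feeders (adjusted p = 5.28e-09). The higher Itga6 level of ES cells given above thus went mostly with the skipping transcript. A predicted Itga6 transcript, whose exons were not compared, held a mean of 13.8% in ES cells against 26.4% in feeders, with groups that overlapped.

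Tead1, a DNA-binding partner of YAP, was not called as a gene (-0.13, adjusted p = 0.257). NM_001166585 held 87.6, 82.7 and 83.7% in ES cells against 8.90, 6.34 and 12.6% in feeders, and NM_001166584 held 12.4, 9.48 and 14% in ES cells against 37.8, 69.8 and 45.5% in feeders (adjusted p of transcript use 1.83e-08). The latter has the 63-base exon printed above, a further exon of 12 bases, and another first exon. Another curated Tead1 transcript, whose exons were not compared, held a mean of 3.35% in ES cells against 39.7% in feeders. Slain2, which acts at growing microtubule ends, had the transcript with its 78-base exon, NM_153567, at 0% in ES cells against 35.1, 28.3 and 38.5% in feeders (adjusted p = 1.59e-07). The leading Slain2 transcript of feeders was a predicted one whose exons were not compared, with a mean of 24.8% in ES cells against 55.2% in feeders. The exocyst complex tethers secretory vesicles to the membrane, and 2 of its genes used an extra exon more in ES cells. The transcript with it held 29.4, 19.4 and 38.8% in ES cells against 3.18, 2.55 and 0% in feeders for Exoc1 (adjusted p = 0.00523). For Exoc7 it held 12.1, 11.3 and 14.3% in ES cells against 0.912, 1.12 and 0% in feeders (adjusted p = 0.000222). Neither was called as a gene (adjusted p = 0.908 for Exoc1 and 0.455 for Exoc7).

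Dnm2, the gene of the membrane-cutting GTPase dynamin 2, has 2 forms of exon 10, of 139 bases each and identical at 95 of them (68.3%). NM_001039520, with one form, held 25.6, 26.3 and 25.7% in ES cells against 0.977, 10.1 and 4.59% in feeders. NM_007871, with the other, held 11.9, 10.1 and 14.6% in ES cells against 30.1, 30.7 and 32.4% in feeders (adjusted p = 5.63e-16). These transcripts also differ by an exon of 12 bases. Fgfr1, a fibroblast growth factor receptor gene, has a 267-base exon that encodes its outermost immunoglobulin-like domain. NM_001079908, with the exon, held 41.6, 42.2 and 43.1% in ES cells against 27.7, 26.9 and 29.6% in feeders, and NM_001079909, without it, held 27.4, 15.2 and 22.2% in ES cells against 46.2, 50.6 and 49.4% in feeders (adjusted p = 3.07e-07). Clstn1, the gene of the membrane protein calsyntenin 1, had the transcript with its 30-base exon, NM_023051, at 19.6, 2.47 and 18.3% in ES cells against 46.5, 26.5 and 35.3% in feeders (adjusted p = 0.0117), but the call was lost with Simes (adjusted p = 0.0911) and without ES cell library 3 (0.054) or feeder library 1 (0.0944). For each transcript of these genes whose 6 shares are given, the groups did not overlap.

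In 11 of the named genes the moving transcripts had different first exons. Rbpj, the DNA-binding effector of Notch, used NM_001080928 at 76, 76.6 and 78.5% in ES cells against 0, 1.11 and 0% in feeders, and NM_001080927 at 10.8, 13.2 and 10.7% in ES cells against 55.6, 65.3 and 67.8% in feeders (adjusted p = 3.06e-29). Ash2l, a subunit gene of histone H3 lysine 4 methyltransferases, used NM_011791 at 8.70, 7.82 and 10.4% in ES cells against 74.6, 76.6 and 81.8% in feeders (adjusted p = 2.27e-23). The ubiquitin ligase gene Trim13 used NM_001164220 at 81.6, 79.9 and 80.7% in ES cells against 0% in feeders (adjusted p = 1.36e-16). Among genes whose moving transcripts are both curated, with at least 10 CPM in both groups, Rab27a had the largest move in counts (81.8 points against 80.7 for Trim13), but in the deposited TPM Trim13 moved more (84.1 against 81.9 points). For Rab27a both RefSeq transcripts matched the same GENCODE transcript, so that no exon can be named.

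Of 107 genes with isoforms known to differ between cell types, 91 were tested, 53 were called and 21 of these moved by at least 20 points. Over all genes tested for transcript use, 27.8% were called, and 10.1% were called with a move of at least 20 points. The median largest move was 11.5 points in the listed genes against 7.8 over all genes tested. Fn1, the fibronectin gene, was one of the 21. NM_001276410 held 10.8, 7.80 and 14.7% in ES cells against 31.9, 33.7 and 37% in feeders, and the predicted transcript XM_006495699 held 27.7, 32.9 and 24.1% in ES cells against 13.6, 11.1 and 11.9% in feeders. The gene-level test called the difference (adjusted p = 1.54e-05), but the Simes version did not (adjusted p = 0.0533), and neither did a voom fit. Tnc, a matrix gene with alternatively spliced fibronectin-like repeats, used NM_001369214 at 10.8, 15.7 and 16% in ES cells against 46, 46.1 and 40.7% in feeders (adjusted p = 5.03e-12). The p53-defective feeders did not share all of these moves. In ES cells with ATN161 against p53-defective feeders, mean shares were 5.58% against 2.38% for this Tnc transcript. They were 2.09% against 5.4% for NM_001276410 of Fn1, and 72.7% against 34.9% for NM_009316 of Map3k7. By contrast, NM_001080928 of Rbpj held 81.1% against 0%, and NM_001164220 of Trim13 84.5% against 2.4%. Transcript use was not tested in that pair, so the moves given describe control feeders only.

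**Figure D4:**
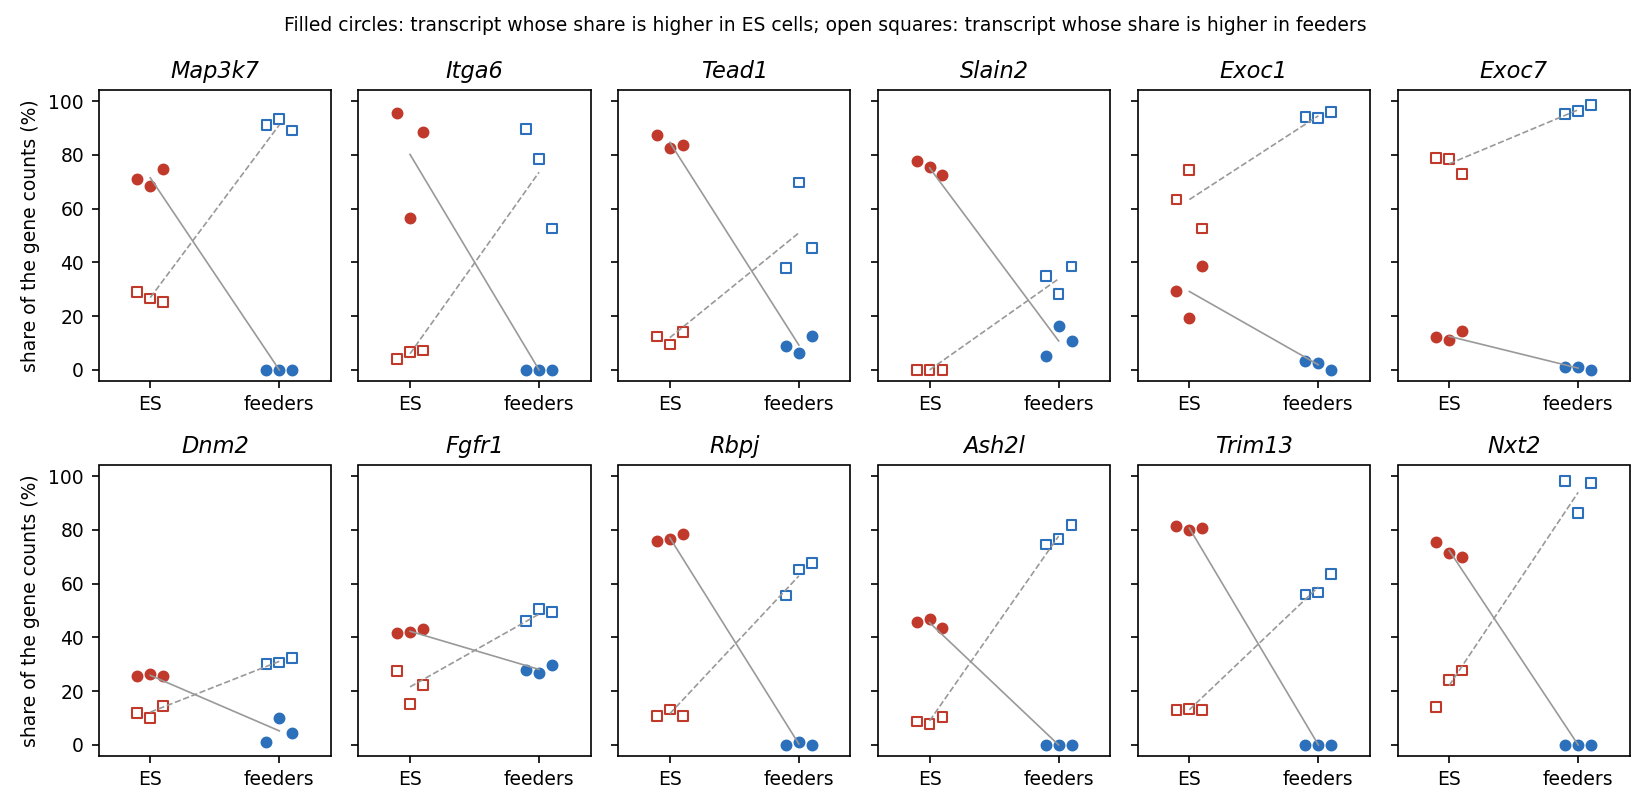
Share of the gene's counts held by the moving transcripts of 12 genes in each library, with filled circles for the transcript whose share was higher in ES cells and open squares for the transcript whose share was higher in feeders. In Map3k7, Itga6, Ash2l, Trim13 and Nxt2 the filled circles are at 0% in all 3 feeder libraries.

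A second pair of cultures, with no library in common with the first, allowed the same kind of contrast: ES cells with ATN161 against feeders labelled p53-defective. Both of its members differ from the first pair in their treatment or genotype. Over all genes tested, 7465 (48.5%) were called higher in the ES cells of the second pair and 5814 (37.8%) lower. Of the 1843 genes at least 8-fold higher in ES cells in the first pair, 1737 were called higher in the second as well, 53 were called lower and 53 were not called, with medians of 5.63 and 5.67. Of the 713 genes at least 8-fold lower, 432 were called lower, 128 higher and 153 not called, with medians of -3.73 and -2.04. The difference between the contrasts was itself called for 10505 genes (68.3%), among them 816 of the 1843 and 471 of the 713.

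Single genes show both outcomes. Nanog stood at 10.93 ± 0.19 in the first pair and 10.05 ± 0.17 in the second, and Cdh1 at 11.76 ± 0.24 and 6.89 ± 0.17. Col1a1 stood at -3.64 ± 0.16 and -3.80 ± 0.16, and the difference between the contrasts was not called (0.16 ± 0.20, adjusted p = 0.486). Thy1 stood at -3.89 ± 0.11 and -0.54 ± 0.11 (difference -3.34 ± 0.15, adjusted p = 8.90e-15), with 946 ± 39 CPM in control feeders and 33.6 ± 6.28 CPM in p53-defective feeders (mean ± SD, n = 3). Fn1 stood at -2.95 ± 0.15 and -3.43 ± 0.15 (difference 0.48 ± 0.19, adjusted p = 0.0331).

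**Figure D5:**
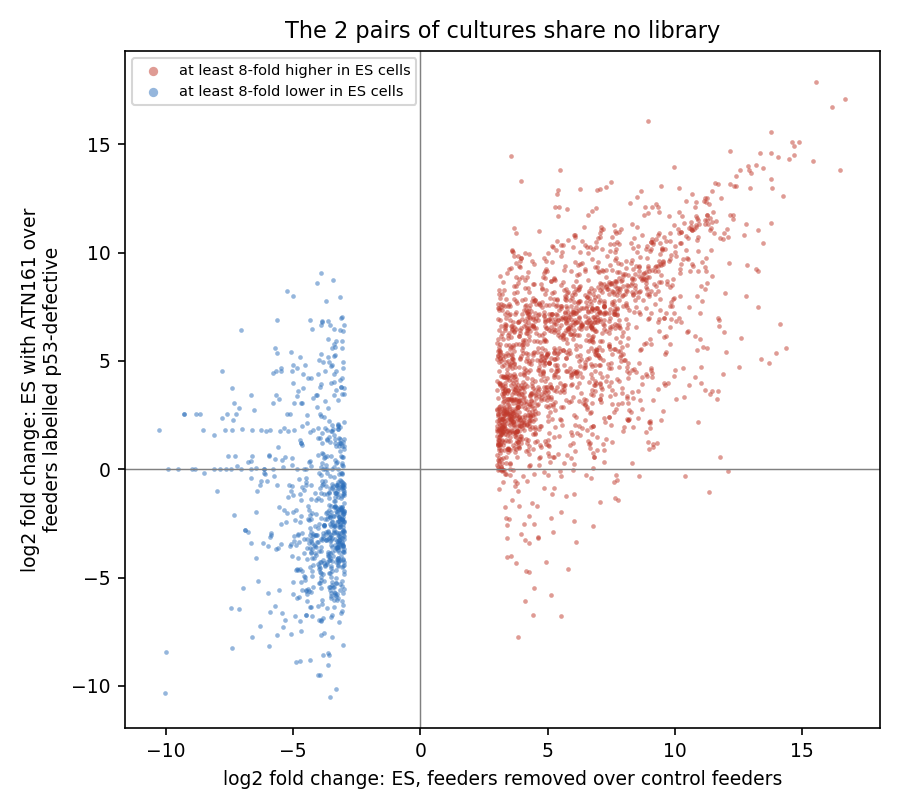
Log2 fold change of each gene called with at least 8-fold difference between ES cells with feeders removed and control feeders (x axis) against its log2 fold change between ES cells with ATN161 and p53-defective feeders (y axis). Of the genes on the right, 1737 of 1843 were called higher in the second pair, whereas the genes on the left lie on both sides of 0, and points in horizontal rows are genes with 0 or few counts in the second pair, whose fitted value depends on the prior count.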

How the data were processed

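The authors deposited 1 table of 75416 RefSeq transcripts (32625 curated, 42791 predicted) with estimated read counts, TPM and other values per library. The submitters' processing notes name StringTie 1.3.3b, HISAT2 2.1.0, DESeq2 1.2.10 and SAMtools 1.4, and mm10 (GRCm38), with no role or order, and per the labels' protocols RNA was extracted with Trizol and made into libraries with a TruSeq mRNA kit. The annotation release and the use of strand are not given in the sources used here, so reads of overlapping and antisense genes cannot be told apart. The authors' estimated counts were summed per gene (89.3% of sums above 0 were whole within 0.05) and rounded. The authors' deposited FPKM and normalized count signal, the latter of unstated method, were not used. The authors' deposited TPM served for levels between genes and to check transcript shares.

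Counts of all 18 libraries were fitted with edgeR 4.0.16 (R 4.3.3): filterByExpr, TMM scaling, robust quasi-likelihood test, Benjamini-Hochberg adjustment. Of 19630 genes, 4241 failed the filter, and the common biological coefficient of variation was 0.0792. Transcript use was tested with the gene-level F test of diffSpliceDGE. DESeq2 1.42.0 and limma 3.58.1 served as alternatives, and the procedures were tested on simulated data. Replicates correlated at r of 0.9932 to 0.9952 within groups, and chi-square statistics of replicate pairs per degree of freedom were 3.01 or more, so that no pair was counted as 1 library. Ratios for genes with 1 to 3 counts in a group have 95% intervals, and these and the floor of 3 counts over the group cover counting error only.

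The members and gene lists were chosen with earlier results of these data known. Genes named were a fixed marker set, the 15 largest rises and 15 largest falls, the members of each list with the smallest p or against its direction, and the largest transcript moves; further members were named for their known roles with their values in view. Percentages left compare mean CPM. Correlations across genes are descriptions, since genes are not independent replicates. Some genes that the naming rule covers are not reported here.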

Additional observations from a re-analysis of the deposited data

Results flagged for a closer look

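The contrast of ES cells with feeders differed between the pair compared here and the second pair (ES cells with ATN161 against p53-defective feeders) in 12 genes named by rule, each with at least 8-fold difference in the first pair and the largest differences in either direction. Of these, 6 stood at a positive difference of the log2 fold changes (first pair minus second) and the others at a negative one, and each was called by edgeR's quasi-likelihood test of the difference.

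Eno1b, an enolase gene copy, stood at 12.38. It had 276, 254 and 274 CPM against 0.113, 0 and 0.174 CPM in the first pair, and means of 297 ± 15.2 CPM with ATN161 and 608 ± 44.7 CPM in p53-defective feeders (SD, n = 3). Hmga1b, a chromatin protein gene copy, stood at 10.73, with 233, 204 and 214 CPM against 0, 0.116 and 0.347 CPM, and 242 ± 8.71 CPM against 305 ± 61.9 CPM. Both are near-identical copies of another gene, so that their counts are uncertain. Fosb, an immediate early gene, stood at 10.44, with 213, 209 and 227 CPM against 3.90, 4.11 and 3.48 CPM, and 0.256 ± 0.184 CPM against 6.47 ± 1.23 CPM.

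C3, the complement gene, stood at 10.18, with 44.7, 48 and 51.8 CPM against 2.89, 2.20 and 3.24 CPM, and 9.86 ± 1.17 CPM against 662 ± 186 CPM. Saa3, an acute phase gene, stood at 9.39, with 33.2, 24.8 and 39.6 CPM against 0.340, 0.405 and 0.116 CPM, and 8.09 ± 0.953 CPM against 49 ± 26.9 CPM. Ugt1a6b, a glucuronosyltransferase gene that shares exons with its neighbours, stood at 9.22, with 6.34 ± 0.956 CPM with ATN161 against 122 ± 10.2 CPM in p53-defective feeders.

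In the 6 genes with negative values the p53-defective feeders were at or near 0, so that the fitted value depends on the prior count and is no bound. Igfbp5 stood at -13.47, with 11 ± 1.28 CPM against 0.125 ± 0.108 CPM in the second pair. Fgl2, a fibrinogen-like secreted protein gene, stood at -13.45 (2.04 ± 0.417 CPM against 0 CPM in each library), Cthrc1, a secreted collagen repeat protein gene, at -13.00 (1.74 ± 0.127 CPM against 0 CPM in each library), and the kinesin gene Kif1a at -12.97 (14.4 ± 0.602 CPM against 0.0204 ± 0.0354 CPM). Hoxd13 stood at -12.63 (2.62 ± 0.430 CPM against 0 CPM in each library) and the transporter gene Slc6a17 at -12.55 (0.814 ± 0.275 CPM against 0 CPM in each library). In the first pair each of these 6 genes was lower in ES cells, Fgl2 with 1.70, 2.08 and 1.90 CPM against 69, 72.4 and 72.5 CPM and Kif1a with 18.9, 20.2 and 20.6 CPM against 289.7, 311 and 303 CPM.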

How the results depend on the processing

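Counts of called genes moved by more than 1.5 times under few alternatives. Testing against a fold of 2 called 7205 genes (3935 higher in ES cells, 3270 lower), and a filter at 5 CPM left 1039 higher and 452 lower genes at 8-fold. Transcript use was called for 709 genes with the Simes adjustment and 1117 with curated transcripts only, and with moves of at least 20 points for 383 and 450; thresholds of 10 and 40 points gave 1370 and 181. Other normalizations, tests, filters and fits called 11001 to 14083 genes, and 51.6% to 54.6% of called genes were higher in ES cells under every setting run.

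Without 1 library of the groups compared, 13019 to 13096 genes were called, 6879 to 7019 higher and 6042 to 6202 lower. At 2-fold the ranges were 4506 to 4602 higher and 3740 to 3876 lower, and at 8-fold 1896 to 1946 and 690 to 759. The difference of contrasts was called for 10167 to 10747 genes, and transcript use for 1582 to 1674 genes, 614 to 669 with moves of at least 20 points.

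Replicate numbers did not pair the libraries (correlations of the deviations 0.032, -0.006 and 0.022). With the replicate number as a block, 13205 genes were called (6935 higher, 6270 lower), 4443 and 3827 at 2-fold, 1842 and 712 at 8-fold, 10449 for the difference of contrasts, and 1784 for transcript use, 670 with moves of at least 20 points.

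Log2 fold changes of named genes and list members kept their direction and side of the threshold in 4174 recomputed values. They lost the call in 39 values of 15 genes, gained it in 1, and turned direction in 2, both with curated transcripts only: Il11 at 0.39 and Mbnl3 at 0.10. List medians turned for basement membrane genes (0.18), endothelial markers (-0.96) and skeletal muscle markers (-1.76) with curated transcripts only. Muscle markers also turned with the 2 groups alone (-1.76) and without feeder library 1 (-0.01). The cause was not tested. Without ES cell library 1 the muscle median was 0.08. The transcript-use call was lost under at least 1 setting for Col6a3, Bcl2l1, Clstn1 (adjusted p = 0.0911 with Simes), Fn1 and Pdlim5. Depth limits genes near the floor of 3 counts over a group of 3 libraries, which is 0.0569 CPM in the feeders and 0.0558 CPM in the ES cells.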

Other observations

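Imprinted genes, which are expressed from 1 parental copy and often regulate growth, were lower in ES cells in 15 of 27 cases, higher in 10 and not called in 2 (median -0.76). Growth regulators of the embryo were among the lower ones. Peg3, a zinc finger gene, had 67.2, 69.7 and 60.2 CPM against 453, 458 and 580.5 CPM (-2.92 ± 0.15), Grb10, an adaptor of insulin receptors, had 72.5, 81.2 and 76.6 CPM against 728, 681 and 744 CPM (-3.22 ± 0.10), and Dlk1 stood at -2.36 ± 0.11. Placental genes were among the higher ones, with Phlda2 at 3.09 ± 0.39 and Ascl2 at 2.55 ± 0.54. Snrpn, a splicing factor gene, had 42.6, 46.4 and 45.2 CPM against 9.51, 9.13 and 9.61 CPM (2.25 ± 0.08).

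Of 12 telomere genes, 9 were higher in ES cells, Acd was lower and 2 were not called (median 1.45). Terf1, which binds telomeric repeats, had 79.6, 78.4 and 67.7 CPM against 7.70, 7.63 and 8.69 CPM (3.23 ± 0.10), and the telomerase genes Dkc1 and Tert stood at 2.47 ± 0.14 and 1.13 ± 0.11. All 4 tested Y-linked genes were higher in ES cells and present in the feeders (median 3.18). Ddx3y had 13.1, 14.8 and 12.7 CPM against 1.25, 1.27 and 1.27 CPM (3.42 ± 0.19) and Eif2s3y 8.94, 12.5 and 10.4 CPM against 1.58, 1.91 and 2.08 CPM (2.51 ± 0.17).

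Markers of other cell types were mixed. Of 14 neural markers, 8 were higher in ES cells, 3 lower and 3 not called (median 1.99), with Stmn2 at 5.76 ± 0.14 and Tubb3 at 2.80 ± 0.10. Of 14 mesothelial markers, 9 were lower, 4 higher and 1 not called (median -1.53), with Msln at 1.86, 1.39 and 2.22 CPM against 25.9, 26.8 and 31.7 CPM (-3.94 ± 0.17). Of 18 trophectoderm and primitive endoderm genes, 10 were higher, 5 lower and 3 not called (median 1.52), and Cdx2, Elf5 and Ttr did not pass the filter on low counts. Of 11 endothelial markers, 6 were higher, 4 lower and 1 not called (median 1.3), Pecam1, which ES cells also express, with 101, 99.1 and 105 CPM against 0.0566, 0.116 and 0.174 CPM (9.70 ± 0.18). Skeletal muscle markers were even, 6 higher and 6 lower of 13 (median 0.01).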
